A study of Mus musculus with 3 samples.

Results

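The clustered protocadherin genes are 57 protein-coding genes of mouse chromosome 18 whose symbols begin with Pcdha, Pcdhb or Pcdhg, out of 21519 protein-coding genes in the RefSeq gene table of the mm10 build. They form 3 arrays in genome order, with 14 Pcdha members, 22 Pcdhb members and 21 Pcdhg members. Nucleosome positions were mapped over the arrays in mouse fetal liver erythroblasts, the nucleated precursors of red cells. Ter119-negative cells, which lack a surface marker of later erythroid stages, came from 6 fetuses. All were grown in IMDM with 10% serum, 2 U per ml erythropoietin, albumin and insulin. Chromatin was taken on culture days 0, 1 and 2 and digested with micrococcal nuclease, an enzyme that cuts linker DNA, and the DNA of mononucleosomes was sequenced. The series asks where nucleosomes lie in these cells. Each day has a single library, with no replicate check of any difference between days, and days were compared without a test. Strain, genotype and any sharing of a culture between days are left unstated by the labels, and position lists hold no expression by which the labelled cell type could be checked.

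Protocadherins are membrane proteins of the cadherin family with a role in cell adhesion. The clustered ones are known for their work in neurons, where each cell uses a few of them and their extracellular domains bind only to matching copies on another cell, which lets a neuron tell its own branches from those of others. In the alpha and gamma arrays each member has its own promoter and its own large variable exon, which encodes the extracellular domains and is spliced to constant exons shared by the whole array. Each beta gene encodes its protein in a single exon and has no constant exons. Promoter choice involves CTCF and cohesin, and C-type members (Pcdhac1, Pcdhac2, Pcdhgc3, Pcdhgc4 and Pcdhgc5) are expressed more uniformly among neurons than the others.

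The Pcdha span ran from 36930285 to 37188897 on chromosome 18 (258.6 kb), the Pcdhb span from 37264998 to 37521419 (256.4 kb) and the Pcdhg span from 37661775 to 37841873 (180.1 kb). Gaps of 76.1 kb and 140.4 kb separated them. All Pcdha models ended within 1240 bp of each other and all Pcdhg models within 10 bp, so the low coordinate was taken as the start of each member. Strand was not in the table used for this chromosome, and the Pcdhb genes, which are 2340 to 5271 bp long, were read in the same direction from background knowledge of the tandem array. Shared sequence was counted once. The 3 read-through models Gm37013, Gm38666 and Gm38667, which start within Pcdha and end with Pcdhg, and the pseudogene Pcdhgb8, with 8, 8 and 10 positions in its start window on days 0, 1 and 2, were not counted as members. The arrays hold sequences that resemble each other, above all among the Pcdhb genes, so reads of one copy may have been placed on another.

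The lists held 3689577, 2967550 and 4382151 positions on the 19 autosomes on days 0, 1 and 2, or 1.53, 1.23 and 1.82 per kb. A position is a stretch of 140 bp that the authors called as a nucleosome. Its summit value is their smoothed coverage at the centre, with medians of 7.62, 6.80 and 6.26. Since the 3 lists differ in length, densities are given relative to the autosome mean of the same library, which is 1 on each day. Summit values lay on whole steps of 0.762, 0.324 and 0.626, and if a step is 1 unit of coverage, the day 1 library was 2.36 times as deep as that of day 0 and the day 2 library 1.22 times. The part of this depth difference in the results below was not tested. Brackets after ratios hold exact 95% intervals that cover counting error only.

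The arrays lay in a stretch with few listed nucleosomes between 2 well-covered flanks, and the 3 spans together were least dense on day 0. The sequence between variable exons was sparser on day 1 than on day 0 in Pcdha (0.152 against 0.191) and Pcdhg (0.631 against 0.804). Between the Pcdhb genes day 0 was the lower, at 0.137 against 0.170. The Poisson intervals of these 2 days overlapped in each case. The 3 spans together held 471, 560 and 872 positions on days 0, 1 and 2, a relative density of 0.441, 0.653 and 0.688. The flanks, 500 kb on each side, held 2991, 2709 and 3089 positions, a relative density of 1.95, 2.19 and 1.69. The density of the arrays on the 3 successive days was thus 0.227 (0.205 to 0.250), 0.297 (0.271 to 0.326) and 0.406 (0.376 to 0.438) of that of the flanks. The intervals of the 3 days did not overlap, but with lists cut to equal length the ratios were 0.189, 0.297 and 0.302, and days 1 and 2 were then close. The order of days 1 and 2 in the relative density itself turned in 3 settings, which were equal list lengths (0.385, 0.653 and 0.574), scaling to chromosome 18 (0.536, 0.824 and 0.763) and leaving out Pcdhb (0.594, 0.818 and 0.781).

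**Figure D1:**
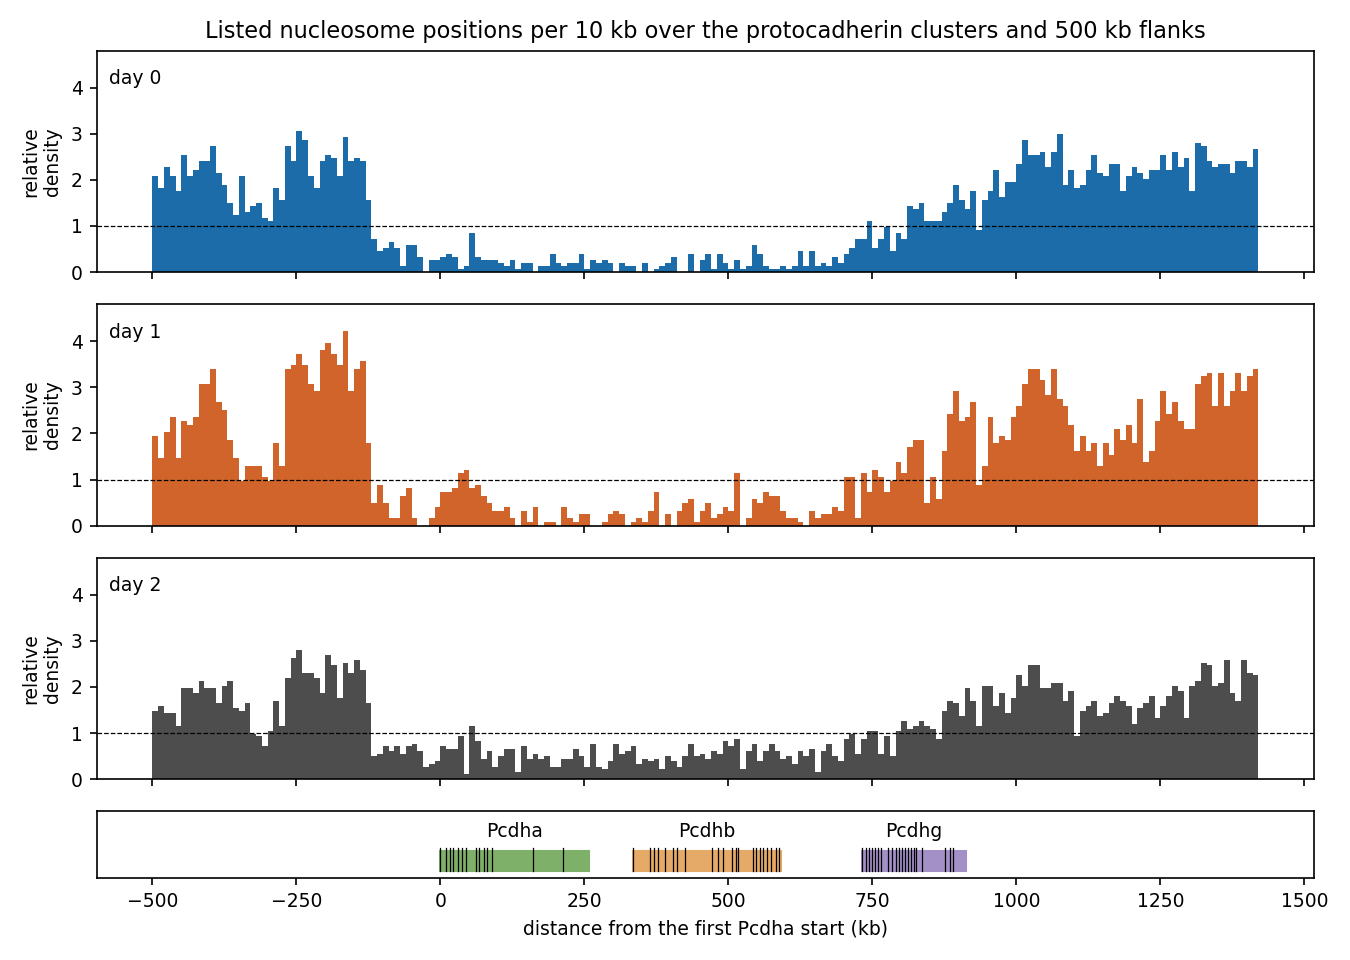
Density of listed positions per 10 kb, relative to the autosome mean of each library (dashed line at 1), against distance from the first Pcdha start in kb, for days 0, 1 and 2, with the 3 arrays and their member starts (black ticks) drawn below. The Pcdha and Pcdhb arrays sit in a trough on all 3 days, while density climbs through Pcdhg towards the right flank.

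The low stretch began before the first Pcdha member. From the end of Zmat2, the last gene before the array, to the first Pcdha start, 130.6 kb held 104, 80 and 154 positions on days 0, 1 and 2, a relative density of 0.519, 0.496 and 0.647. The Pcdha array itself was less dense than this stretch, which holds no protein-coding gene of the table, on day 0, at 0.447 (0.334 to 0.597) of its density. On days 1 and 2 the ratio was 0.833 (0.627 to 1.11) and 0.823 (0.671 to 1.01), with intervals that include 1.

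The arrays were less dense than most stretches with as many genes. The 100 kb bins with their midpoints in the arrays had 48 to 64 genes in the surrounding 1 Mb. That number counts gene midpoints, among them those of the members themselves and of the 3 read-through models. The 216 autosomal bins with that gene number had a median relative density of 2.73, 3.21 and 2.16 on days 0, 1 and 2. The 6 array bins, of which the only gamma bin lay at 1.07, 1.17 and 1.04, had medians of 0.218, 0.373 and 0.551. These lay nearer to the medians of 5629 bins with at most 1 gene in the 1 Mb, which were 0.163, 0.130 and 0.422. The day 1 list went opposite ways in the 2 sets, since the median of the gene-poor bins was lower on day 1 than on day 0 and that of the array bins was higher.

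Of the 6 array bins, 5 were denser by 2 times or more on day 2 than on day 0, where 25.5% of all 24048 autosomal bins were. It was 1 of 6 from day 0 to day 1, against 1.65% of all bins, and from day 1 to day 2 it was 1 of 6 against 39.6%. No array bin was lower by 2 times or more in any step. Over all bins, 14.9%, 0.00416% and 0.686% were lower from day 0 to 1, day 1 to 2 and day 0 to 2. From day 0 to 2 the median of the bins with at most 1 gene went from 0.163 to 0.422. That of the array bins went from 0.218 to 0.551, so a rise in that step was also seen in gene-poor bins elsewhere.

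The alpha array, whose members share their constant exons, held 92, 132 and 251 positions on days 0, 1 and 2. Its relative density was 0.232, 0.413 and 0.532. Scaled by the list lengths, the day 1 number was 1.78 (1.36 to 2.35) times that of day 0 and the day 2 number 2.30 (1.80 to 2.95) times. The beta array held 71, 117 and 247 positions, a relative density of 0.180, 0.370 and 0.528, with scaled ratios to day 0 of 2.05 (1.51 to 2.79) and 2.93 (2.24 to 3.87). Alpha and beta arrays were close to each other on every day, with a beta to alpha density ratio of 0.778 (0.563 to 1.07), 0.894 (0.691 to 1.16) and 0.992 (0.829 to 1.19).

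The gamma array stood apart from both. It held 308, 311 and 374 positions, a relative density of 1.11, 1.40 and 1.14, which is near or above the autosome mean. The scaled ratio to day 0 was 1.26 (1.07 to 1.47) on day 1 and 1.02 (0.877 to 1.19) on day 2. With only positions of summit value 10 or more, 13, 20 and 24 in number, these ratios were 2.16 and 2.58. Those of the alpha array in that setting, 1.87 and 2.33, rest on 3, 4 and 5 positions, too few to compare the arrays. Over all listed positions the density of the gamma array was 4.81 (3.80 to 6.14), 3.38 (2.75 to 4.18) and 2.14 (1.82 to 2.52) times that of the alpha array on days 0, 1 and 2. The 2 arrays thus differed least on day 2. Within the gamma array, the part from the start of Pcdhga10 to the shared end was denser than the part before it by 1.69 (1.33 to 2.15), 1.57 (1.24 to 2.00) and 1.42 (1.15 to 1.76) times on days 0, 1 and 2. That end of the array adjoins Diaph1, an actin regulator gene with 243 positions over the whole gene on day 0 and a relative density of 1.72.

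The gaps between the arrays hold mainly sequence without genes, and were about as sparse on day 1 as on day 0. They held 80, 69 and 216 positions, a relative density of 0.241, 0.258 and 0.547. The scaled ratio of day 1 to day 0 was 1.07 (0.766 to 1.50), and that of day 2 to day 1 was 2.12 (1.61 to 2.82). That of day 2 to day 0 was 2.27 (1.75 to 2.98), close to the 2.30 of the alpha array. The arrays were 1.83 (1.44 to 2.35), 2.53 (1.97 to 3.29) and 1.26 (1.08 to 1.47) times as dense as the gaps on days 0, 1 and 2.

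On day 1 most positions of the alpha array lay on its variable exons, taken as the first 2500 bp of each member. These 14 stretches make up 13.5% of the span and held 26 of 92 positions on day 0 (28.3%, Clopper-Pearson interval 19.4 to 38.6%). On day 1 they held 90 of 132 positions (68.2%, 59.5 to 76.0%), and on day 2 they held 78 of 251 (31.1%, 25.4 to 37.2%). Between the first and the last variable exon, the sequence outside these stretches held 53, 34 and 137 positions. The density ratio of variable exons to the sequence between them was 2.54 (1.52 to 4.13), 13.7 (9.13 to 20.9) and 2.94 (2.20 to 3.91) on days 0, 1 and 2. The day 1 interval lay above those of the other days. With the exon taken as the first 1500 bp the day 1 ratio was 5.14, and with summit values of 10 or more day 2 (20.7, from 4 positions against 1) was above day 1 (15.5, from 3 against 1).

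The exons and the sequence between them took different courses. Scaled by the list lengths, the variable exons of the alpha array held 4.30 (2.76 to 6.94) times as many positions on day 1 as on day 0, and 0.587 (0.428 to 0.804) times as many on day 2 as on day 1. The sequence between them held 0.798 (0.503 to 1.25) times as many on day 1 as on day 0 and 2.73 (1.86 to 4.10) times as many on day 2 as on day 1. The stretch after the last variable exon, which includes the shared constant exons, held 13, 8 and 36 positions, with a density close to that of the sequence between the variable exons (ratios of 1.04, 0.996 and 1.11).

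The gamma and beta arrays had the same order of days with smaller ratios. In the gamma array the variable exons held 123, 173 and 155 positions and the sequence between them 133, 84 and 163, a density ratio of 1.90 (1.47 to 2.44), 4.23 (3.24 to 5.55) and 1.95 (1.56 to 2.45). Beta genes, taken whole, held 33, 79 and 115 positions against 38, 38 and 132 between them, with ratios of 2.08 (1.26 to 3.40), 4.97 (3.33 to 7.52) and 2.08 (1.61 to 2.69). In all 3 arrays the day 1 interval lay above that of day 2. It also lay above that of day 0 in the alpha and gamma arrays, while in the beta array the day 0 and day 1 intervals met between 3.33 and 3.40. The stretch after the last gamma variable exon, unlike its alpha counterpart, was 2.13 (1.51 to 2.95), 3.49 (2.44 to 4.98) and 1.87 (1.35 to 2.54) times as dense as the sequence between the gamma exons.

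**Figure D2:**
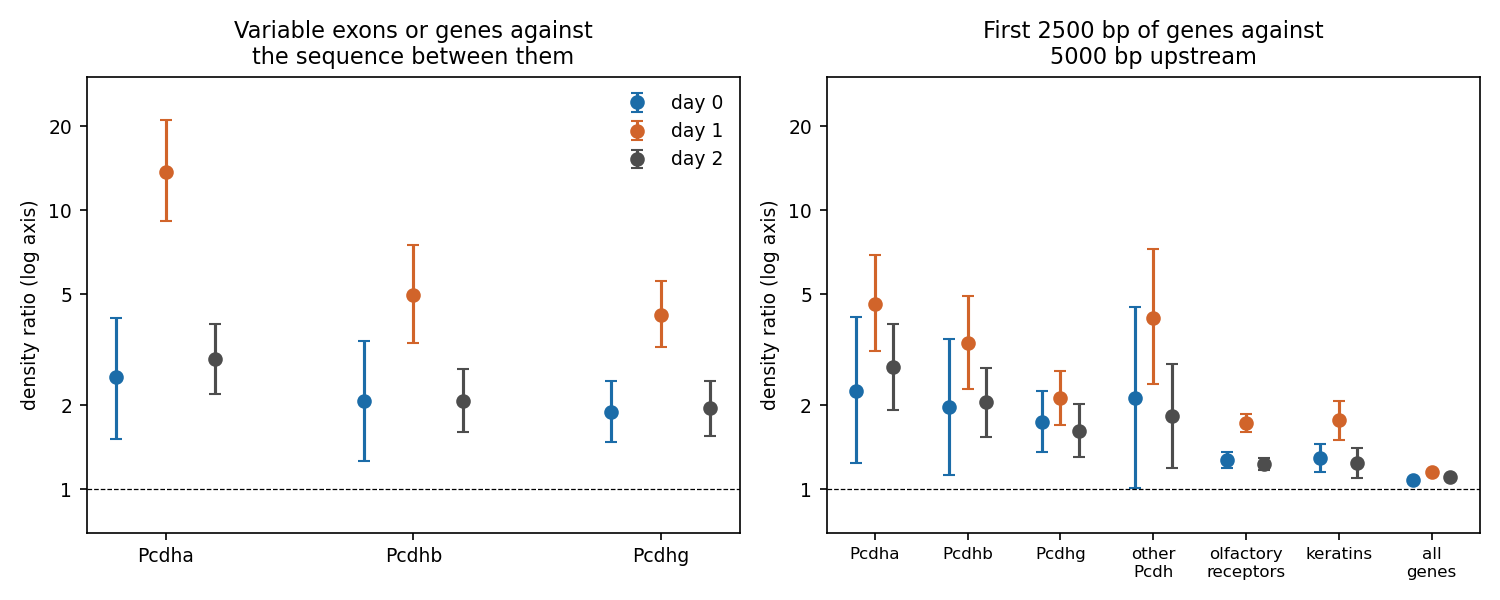
Ratio of position densities on a log axis, with exact 95% intervals, for days 0, 1 and 2. Left, variable exons or beta genes against the sequence between them, where day 1 is the highest point in all 3 arrays (13.7, 4.97 and 4.23 in Pcdha, Pcdhb and Pcdhg). Right, the first 2500 bp of genes against the 5000 bp that end 500 bp before the start, for the arrays and for other gene sets.

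Within the variable exons the positions were not spread evenly. In the alpha array on day 1, the first 500 bp after the starts held 25 positions over the 14 members, a relative density of 2.89 (1.87 to 4.27), and the stretch from 1500 to 2500 bp held 46, a relative density of 2.66 (1.95 to 3.55). The stretch from 500 to 1500 bp lay lower, with 19 positions and a relative density of 1.10 (0.662 to 1.72). Outside the exons the day 1 list was almost empty, with 1 position in the 1000 bp before the 14 starts and 0 from 2500 to 3500 bp. That last value allows a relative density of up to 0.213.

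The same stretches were filled differently in the other libraries. On day 0, the alpha members held 8 positions in the first 500 bp, 4 from 500 to 1500 bp and 14 from 1500 to 2500 bp. On day 2 they held 23, 24 and 31, with 7 in the 1000 bp before the starts and 6 from 2500 to 3500 bp. By density the first 500 bp was the highest of the 3 stretches on each day, at 0.745, 2.89 and 1.80, against 0.651, 2.66 and 1.21 from 1500 to 2500 bp. The Poisson intervals of these 2 stretches overlapped on each day.

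Beta genes were densest in 1 stretch, the last of the 3 within the first 2500 bp. On day 1 they held 7 positions in the first 500 bp (relative density 0.515), 15 from 500 to 1500 bp (0.552) and 56 from 1500 to 2500 bp (2.06, interval 1.56 to 2.68). The stretch from 1500 to 2500 bp was also the densest of the 3 on day 0, with 21 positions, and on day 2, with 59. In the 1000 bp before the 22 starts there were 2, 2 and 10 positions on days 0, 1 and 2. Gamma members held 36, 55 and 82 positions on day 1 in the 3 successive stretches of the exon, and 8 in the 1000 bp before their 21 starts.

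A low density just before the start was shared by the 3 arrays on every day, while over all genes the same stretch was only slightly less dense than the gene body. The relative density of the 1000 bp before the starts was 0.140, 0.0579 and 0.274 in the alpha array on days 0, 1 and 2, 0.0592, 0.0736 and 0.249 in the beta array and 0.434, 0.309 and 0.575 in the gamma array. Over the starts of 16456 genes with a known strand it was 1.69, 2.11 and 1.63, against 1.91, 2.33 and 1.76 from 500 to 1500 bp inside. The sequence between exons or genes was itself sparse, at 0.191, 0.152 and 0.415 in the alpha array. In the beta array it was 0.137, 0.170 and 0.401. The Poisson intervals of the 1000 bp before the starts included these values on each day. In the gamma array that was so on day 2 only (0.360 to 0.870, against 0.830).

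**Figure D3:**
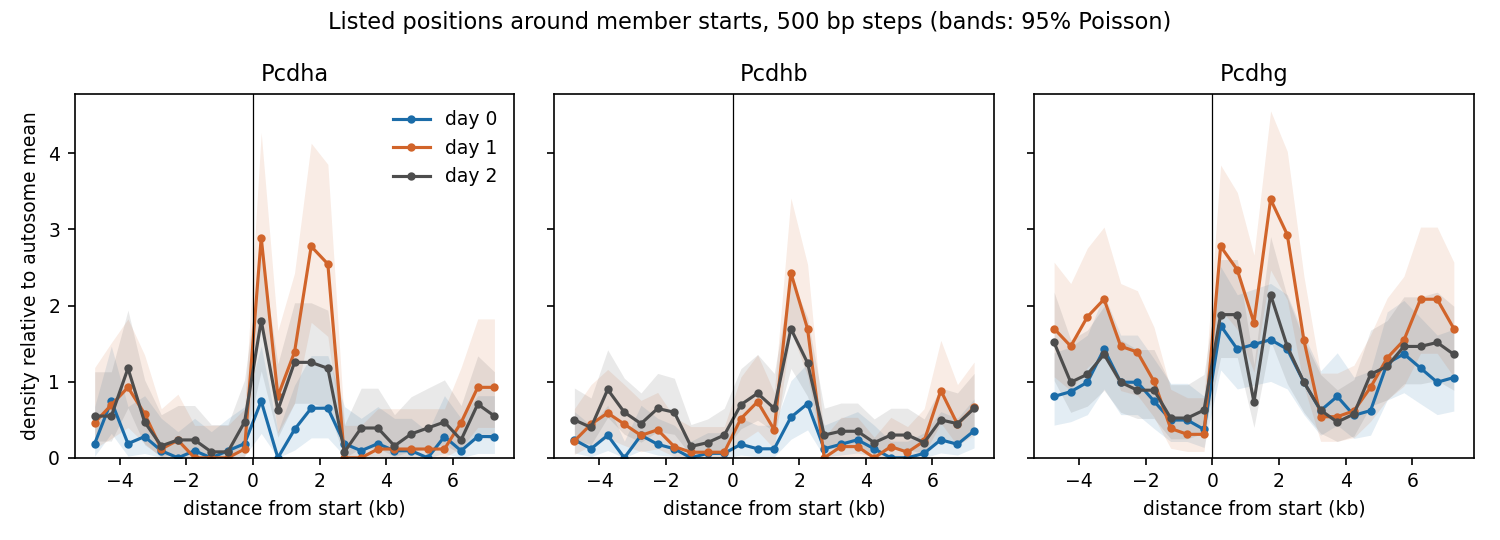
Density of listed positions relative to the autosome mean in steps of 500 bp around the starts of the Pcdha, Pcdhb and Pcdhg members, against distance from the start in kb, for days 0, 1 and 2, with bands for the 95% Poisson interval. The day 1 line drops to near 0 just outside the first 2500 bp in Pcdha and Pcdhb and is highest within them.

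Each member was then described by a window of 3 kb, from 500 bp outside its start to 2500 bp inside. No 2 windows overlapped. The windows held medians of 2, 6 and 6 positions on days 0, 1 and 2, with ranges of 0 to 11, 0 to 16 and 0 to 13. Windows at the ends of all 20556 autosomal protein-coding genes held medians of 9, 9 and 10. On day 0, 8 member windows held no position, and on days 1 and 2 it was 1 each.

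A window was counted as higher or lower when the scaled number, with 1 added on both days, differed by 2 times or more, which is a rule of size and not a test. From day 0 to day 1, 33 of 57 members were higher and 1 was lower, where 8.57% of all gene-end windows were higher and 6.73% lower. Between days 0 and 2, 21 were higher and 1 lower, against 8.72% and 5.2% of all windows. From day 1 to day 2, 2 were higher and 10 lower, against 9.35% and 7.93%.

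The counts rest on small numbers. Among members with at least 3 positions on both days and nothing added, 11 of 27 were higher and 0 lower from day 0 to 1, where 6.58% of gene-end windows under that rule were higher and 2.15% lower. Between days 0 and 2, 1 of 28 was higher and 0 lower, against 2.44% and 4.99%, so under that rule the members were near the background in this step. From day 1 to 2, 1 of 51 was higher and 12 lower, against 1.14% and 9.5%. With windows of 500 bp on each side of the start, 20 members were higher from day 0 to 1 and 11 from day 0 to 2. With equal list lengths, 4 were higher and 19 lower from day 1 to 2. For the short windows and the equal lists no share over all gene-end windows is given. Their counts cannot be set against the shares of the 3 kb window.

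Windows with a like total over the 3 days gave higher background shares. Among 6550 gene-end windows with a total within the quartiles of the members, 13.7% were higher and 17% lower from day 0 to 1, and 12.9% were higher and 10.6% lower from day 0 to 2. In the step from day 1 to 2 it was 14.9% and 7.98%. Over windows at the starts of 16456 genes with a known strand, the higher and lower shares were 9.3% and 4.99% from day 0 to 1, 7.73% and 7.26% from day 1 to 2 and 8.84% and 4.11% from day 0 to 2. The median log2 change of the members from day 0 to 1 was 1.19, against 0.31 over all gene ends. With windows of 0 set to 3 positions it was 1.12 against 0.31. From day 0 to 2 the median was 0.53 against -0.15, and with windows of 0 set to 3 it was 0.63 against -0.25. By raw number, 46 of 57 members held more positions on day 1 than on day 0. On day 2, 49 of 57 held more than on day 0. No share over all gene-end windows is given for raw numbers. The day 2 list is the longest of the 3 and the day 1 list the shortest.

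**Figure D4:**
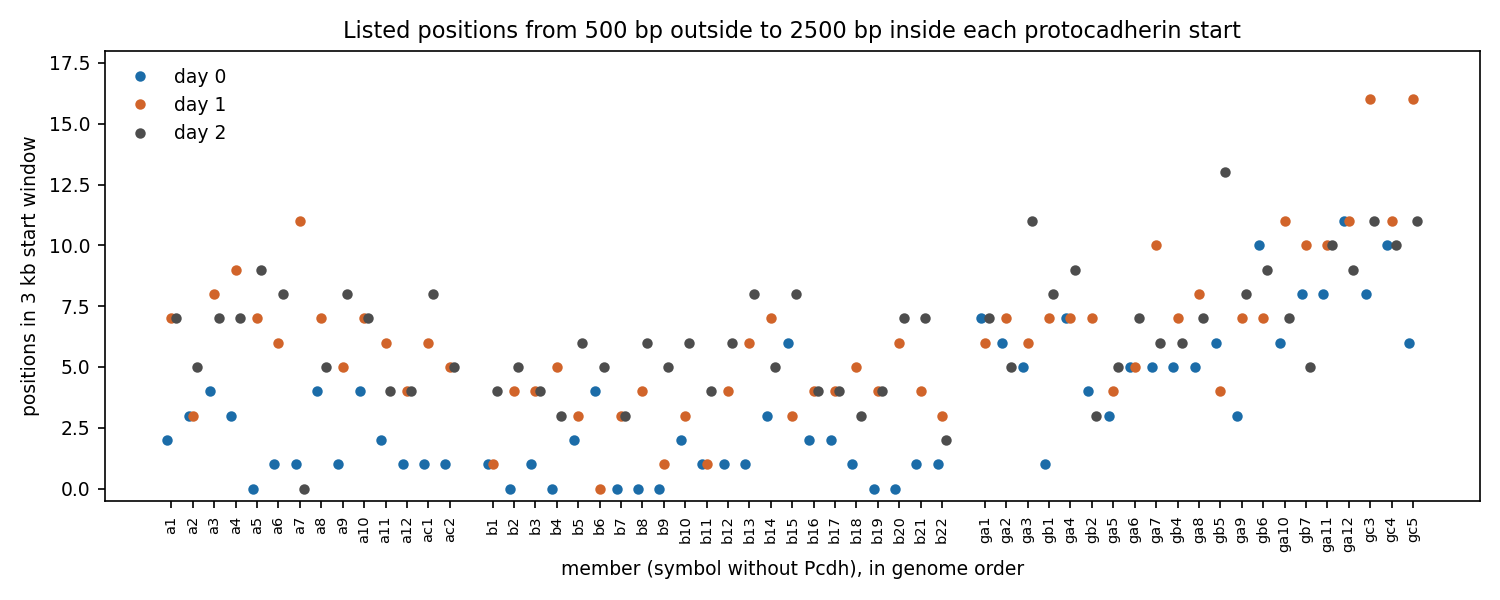
Number of listed positions in the 3 kb start window of each of the 57 members in genome order, for days 0, 1 and 2. Most Pcdha and Pcdhb members hold fewer positions on day 0 (medians 1.5 and 1) than on days 1 and 2, and the members at the far end of Pcdhg hold the most.

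In the alpha array 11 of 14 members were higher from day 0 to 1 and 0 lower, where 8.57% of all gene-end windows were higher and 6.73% lower. Between days 0 and 2 it was 7 higher and 1 lower, against 8.72% and 5.2% of all windows. Pcdha5, an alpha-type member, held 0, 7 and 9 positions on days 0, 1 and 2, at least 2.90 and 2.53 times as many after scaling, with 3 positions set for day 0, while the exact lower limits from both counts were 1.79 and 1.66. Pcdha6 held 1, 6 and 8, with scaled ratios to day 0 of 7.46 (0.905 to 343) and 6.74 (0.903 to 299). Both were named for the largest rises from day 0, so low day 0 values and higher later ones come with that choice.

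Pcdha7 was the exception. Its window held 1, 11 and 0 positions on days 0, 1 and 2, the highest number of the array on day 1 and the lowest on day 2. The scaled ratio of day 1 to day 0 was 13.7 (1.99 to 589). On day 2 its window lay in the longest stretch of the alpha array without a position, 10.0 kb from 36970076 to 36980096. Pcdha9 held 1, 5 and 8 positions, a pattern like that of Pcdha6.

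At the ends of the array, Pcdha1 held 2, 7 and 7 positions. The C-type members Pcdhac1 and Pcdhac2, which lie apart from the others nearest the constant exons, held 1, 6 and 8 and 1, 5 and 5. They did not stand apart from the 12 alpha-type members, whose median was 2, 7 and 7 and whose range was 0 to 4, 3 to 11 and 0 to 9. The remaining alpha members (Pcdha2, Pcdha3, Pcdha4, Pcdha8, Pcdha10, Pcdha11 and Pcdha12) held 1 to 4, 3 to 9 and 4 to 7 positions.

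In the beta array 16 of 22 members were higher from day 0 to 1 and 1 lower, where 8.57% of all gene-end windows were higher and 6.73% lower. From day 0 to 2, 13 were higher and 0 lower, against 8.72% and 5.2% of all windows. By raw number all 22 held more positions on day 2, the longer list, than on day 0, with no background share given for raw numbers. Their median scaled log2 change in that step was 1.07, against -0.15 over all gene ends. With windows of 0 set to 3 positions it was 0.75 against -0.25. Pcdhb20 held 0, 6 and 7 positions on days 0, 1 and 2, at least 2.49 and 1.96 times as many after scaling by the same floor, with exact lower limits of 1.46 and 1.21. Pcdhb8 held 0, 4 and 6, Pcdhb2 held 0, 4 and 5, and Pcdhb4 held 0, 5 and 3. These 4 genes were named for the largest rises from day 0, so empty day 0 windows and filled later ones come with that choice. Of the 22 beta windows, 7 were empty on day 0. The others of these, Pcdhb7, Pcdhb9 and Pcdhb19, held 3, 1 and 4 positions on day 1 and 3, 5 and 4 on day 2.

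Pcdhb6 went the other way in the first step, with 4, 0 and 5 positions on days 0, 1 and 2. On day 1 it lay with Pcdhb7 in the longest empty stretch of the beta array, 21.0 kb from 37322461 to 37343446, although the window of Pcdhb7 held 3 positions at or beyond its end. Pcdhb15 held 6, 3 and 8 positions, the highest beta value of day 0. The first and last genes, Pcdhb1 and Pcdhb22, held 1, 1 and 4 and 1, 3 and 2. Over the 3 days the whole array ranged from 0 to 6, 0 to 7 and 2 to 8, with medians of 1, 4 and 5.

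In the gamma array 6 of 21 members were higher from day 0 to 1 and 0 lower, where 8.57% of all gene-end windows were higher and 6.73% lower. From day 0 to 2 the gamma members were near the background, with 1 higher (4.76%) and 0 lower, against 8.72% and 5.2% of all windows. That 1 member was Pcdhgb1, a B-type gene, with 1, 7 and 8 positions and scaled ratios to day 0 of 8.70 (1.12 to 392) and 6.74 (0.903 to 299). From day 1 to day 2, 6 were lower and 0 higher, against 7.93% and 9.35% of all windows. The gamma windows held medians of 6, 7 and 8 positions, with ranges of 1 to 11, 4 to 16 and 3 to 13.

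Of the gamma C-type members at the far end of the array, Pcdhgc3 and Pcdhgc5 had the highest day 1 values of all 57 members. Pcdhgc5 held 6, 16 and 11 positions on days 0, 1 and 2, a scaled ratio of day 1 to day 0 of 3.32 (1.23 to 10.3). Pcdhgc3 held 8, 16 and 11, with a ratio of 2.49 (1.00 to 6.71). Pcdhgc4, which lies between them, held 10, 11 and 10, with a ratio of 1.37 (0.527 to 3.59). The 12 A-type members had medians of 5.5, 7 and 7 and the 6 B-type members of 5.5, 7 and 7.

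Values also differed along the gamma array. The first 7 members in genome order held 33, 44 and 48 positions in all on days 0, 1 and 2, the middle 7 held 39, 48 and 56, and the last 7, which include the C types, held 57, 85 and 63. Pcdhga12, in the last group, held 11, 11 and 9 positions, the highest day 0 value of all members. Pcdhgb6 held 10, 7 and 9.

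Other gamma members moved in both directions by small numbers. Pcdhga9 held 3, 7 and 8 positions and Pcdhga3 held 5, 6 and 11. Pcdhgb5 held 6, 4 and 13, the highest day 2 value of all members. Pcdhgb7 held 8, 10 and 5, Pcdhgb2 held 4, 7 and 3, and the first member, Pcdhga1, held 7, 6 and 7. The intervals of these 6 members' ratios from day 0 to 2 all included 1, as did those of Pcdhgb6 and Pcdhga12.

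The start contrast of the arrays was set against that of other gene sets, comparing the first 2500 bp with the 5000 bp that end 500 bp before the start. For the arrays that upstream stretch includes exons of neighbouring members, which makes their ratio smaller than the one against the sequence between exons. Over the 57 members it was 1.85 (1.50 to 2.29), 2.75 (2.33 to 3.26) and 1.93 (1.66 to 2.26) on days 0, 1 and 2. Over 16456 genes with a known strand it was 1.08, 1.15 and 1.11, and over 938 olfactory receptor genes, another large tandem family, it was 1.28 (1.20 to 1.36), 1.73 (1.61 to 1.86) and 1.23 (1.17 to 1.29). Over 90 keratin genes it was 1.30, 1.77 and 1.25. Day 1 was thus the highest of the 3 days in each of these sets, and the value over the 57 members was above those of the other sets on each day, with intervals that did not overlap. This did not hold for the gamma array alone, at 1.75 (1.36 to 2.25), 2.12 (1.70 to 2.65) and 1.62 (1.30 to 2.02). Its intervals overlapped those of the keratin genes on every day. On day 0 it did not hold for the alpha or beta array alone either, at 2.26 (1.24 to 4.15) and 1.97 (1.12 to 3.45). Both intervals overlapped those of the olfactory receptor and keratin genes on that day.

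The number of positions in the first 2500 bp, scaled, was 2.40 times as high on day 1 as on day 0 over the members. It was 4.30 in the alpha, 3.46 in the beta and 1.75 in the gamma array. Over all genes it was 1.24, over olfactory receptor genes 1.07 and over keratin genes 0.733. Over 8 non-clustered protocadherin genes with a known strand it was 3.14, above the value over the members, from 17 and 43 positions. Among 5 classes of genes by the GC share of their promoters, taken from RefSeq promoter sequences, it lay between 1.15 and 1.29.

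The non-clustered protocadherins, which are single genes elsewhere, mostly on other chromosomes and including Pcdh11x and Pcdh19 on X, had start contrasts within the range of the arrays on days 0 to 2, from few positions. For 8 of them with a known strand, the first 2500 bp held 17, 43 and 44 positions, and the contrast was 2.13 (1.01 to 4.49), 4.10 (2.38 to 7.26) and 1.83 (1.19 to 2.82). Over whole genes, 2 of 12 were higher and 0 lower from day 0 to 1, where 4.11% of all autosomal genes were higher and 5.58% lower. Between days 0 and 2, 7 were higher and 0 lower, where 7.09% were higher and 2.24% lower. From day 1 to 2, 6 were higher and 1 lower, against 9.42% and 2.87%. These shares come from denser genes, since the median relative density on day 0 was 0.158 over the 12 and 1.94 over all autosomal genes. In 100 kb bins with at most 1 gene the median went from 0.163 on day 0 to 0.422 on day 2. Of all autosomal bins, 25.5% were higher from day 0 to 2 and 39.6% from day 1 to 2. Pcdh11x and Pcdh19, on X, are outside these autosomal shares.

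The largest increases among them from day 0 to 2 were at Pcdh20, with 1, 3 and 8 positions, and Pcdh9, with 136, 109 and 584. The lower values of day 2 were at Pcdh1 and Pcdh12, which lie in the right flank of the arrays. Pcdh1 held 101, 90 and 90 positions, a log2 change from day 0 to 2 of -0.41, and Pcdh12 held 61, 66 and 66, a log2 change of -0.14. Neither was past 2 times, and both had a relative density over 2 on day 0.

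Genes whose products are known to act on the arrays were near the background. Of 12 (the CTCF gene, cohesin subunits and regulators, and chromatin and DNA methylation factors), 0 were higher and 0 lower by 2 times in each step over the whole gene. Of all autosomal genes, 4.11% to 9.42% were higher and 2.24% to 5.58% lower. Smc1a, 1 of the 12, lies on X. Nipbl, a cohesin loader, held 224, 254 and 419 positions, a log2 change from day 0 to 2 of 0.65, and Rad21, a cohesin subunit, held 55, 70 and 87, a log2 change of 0.40. Kdm1a, a histone demethylase, held 177, 114 and 157, a log2 change of -0.42, and Ctcf held 169, 155 and 150, a log2 change of -0.42. These are numbers of positions over the gene, not expression.

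The 30 protein-coding genes in the gaps and flanks had a median relative density of 2.49, 3.31 and 2.23 over the whole gene. None was past 2 times from day 0 to 2, where 7.09% of all autosomal genes were higher and 2.24% lower. In the single steps 1 was higher from day 0 to 1, Taf7, where 4.11% of genes were, and 1 was lower from day 1 to 2, Cd14, where 2.87% were. These counts lie near the background. Taf7, which encodes a subunit of the general transcription factor TFIID and lies in the gap before Pcdhg, held 2, 5 and 4 positions and was the least dense of them on day 0, at 0.351. From day 0 to 2 the next largest increases were at Slc35a4 and Gnpda1 (log2 changes of 0.29 and 0.18) and the largest decreases at E230025N22Rik, Cd14 and Hdac3 (-0.50, -0.44 and -0.42).

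Positions in the arrays had lower summit values than those in the flanks. Their median summit value was 6.10, 6.47 and 5.63 on days 0, 1 and 2, against 7.62, 7.12 and 6.26 in the flanks. Summits that reached 10 numbered 17, 25 and 40 in the arrays, or 3.61%, 4.46% and 4.59%, against 18.4%, 13.5% and 12.8% in the flanks. The fuzziness score, which describes how widely reads spread around a centre, had medians of 49.0, 53.8 and 49.8 in the arrays and 51.9, 55.0 and 52.1 in the flanks. In both it was highest on day 1, as it was over the autosomes.

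Few positions of the arrays were listed at the same place on another day. Of the 471 day 0 positions, 9.34% had a day 1 centre within 20 bp, where 6.90% did after the lists were shifted by 1000 bp, and 13.8% had a day 2 centre, against 8.17% after the shift. Of the 560 day 1 positions, 14.3% had a day 2 centre, against 6.79%. In the flanks the 3 shares were 18.7%, 18.8% and 22.0%, against 13.6%, 15.2% and 15.8% after the shift. A denser list gives more matches by itself, which the shifted value shows.

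Of the 471 day 0 positions, 12 (2.55%) had a centre within 20 bp on both other days, against 138 of 2991 (4.61%) in the flanks. No share after a shift was taken for such matches. Since the flanks are denser, the 2 shares do not show whether fewer positions were kept in the arrays. By array it was 2 in Pcdha, 1 in Pcdhb and 9 in Pcdhg. The start windows of Pcdha3, Pcdhb14, Pcdhga1, Pcdhgb6 and Pcdhga10 each held 1 of them and that of Pcdhgc3 held 2.

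Over all listed positions, neighbouring nucleosomes were listed next to each other more often on day 1. In the arrays 29.3%, 47.2% and 33.4% of consecutive centres lay within 250 bp on days 0, 1 and 2. With summit values of 10 or more the shares were 14.3%, 9.09% and 10.8%, with day 1 the lowest. It was 57.6%, 61.1% and 58.7% in the flanks and 49.9%, 54.2% and 47.8% over the autosomes. The day 1 share was highest in each array, at 40.5% in Pcdha, 33.6% in Pcdhb and 55.2% in Pcdhg. Among distances of 140 to 250 bp in the arrays, the median was 200, 190 and 195 bp, against 192, 185 and 195 bp over the autosomes. The longest stretches without a position were 26.3 kb on day 0, in Pcdhb and holding the starts of Pcdhb7 and Pcdhb8, and 26.1 kb on day 1, in Pcdha and holding no member start.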

How the data were processed

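Micrococcal nuclease sequencing gave 1 list of nucleosome positions per library (3 libraries, days 0, 1 and 2). Bowtie2, bedtools and mm10 are named in the submitters' processing notes, with versions, position caller and read totals not given in the sources used here. Per the file headers, each position carries a summit value, which the authors took from smoothed and scaled coverage (a signal), and a fuzziness score as deposited, in a unit not stated. The p-values deposited by the authors for each position were used in no comparison.

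Positions were assigned by centre and counted in regions, with exact Poisson, conditional binomial and Clopper-Pearson intervals at 95%. Lists were called separately, so numbers were scaled by autosome totals. Gene coordinates came from a RefSeq table. Strand for other genes was found through RefSeq promoter sequences. Members and lists were chosen with earlier results of these data known. Named members are the first and last of each array, the C types and the 3 with the largest change in each direction from day 0 to 1 and from day 0 to 2. Genes of related lists are the 2 or 3 with the largest changes, and other members were named after their values were seen. Alternatives used summed summit values, summit values of 10 or more, equal list lengths (ties drawn at random), other windows, flanks and tolerances. Sequences of the region were not used here. Python 3.11.15, numpy 2.4.6, pandas 2.3.3, scipy 1.17.1 and matplotlib 3.10.9 were used.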

Additional observations from a re-analysis of the deposited data

How the results depend on the processing

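No paired analysis was possible because there was 1 library per day. Of 126 values under alternatives, 62 stayed within the counting interval or within 1.5 times the count, and 64 moved. No ratio whose interval excluded 1 crossed 1, but the order of days turned in the settings named below, and the Pcdhg ratio of day 2 to day 0, whose interval included 1, was 0.934 when scaled to chromosome 18. The cause of a move was not tested unless the setting itself gives it.

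The density of the 3 arrays on days 0, 1 and 2 was 0.383, 0.596 and 0.632 with summed summit values, 0.106, 0.219 and 0.349 with summit values of 10 or more, 0.536, 0.824 and 0.763 scaled to chromosome 18, and 0.594, 0.818 and 0.781 without Pcdhb. With equal list lengths it was 0.385, 0.653 and 0.574. In these last 3 settings day 1 was the highest rather than day 2. Against the flanks it was 0.189, 0.266 and 0.350 with summed summit values, 0.0445, 0.0980 and 0.145 with summit values of 10 or more, and 0.189, 0.297 and 0.302 with equal list lengths, where days 1 and 2 were close. With summit values of 10 or more, the ratios to day 0 on days 1 and 2 were 1.40 and 15.3 in Pcdhb, from 1, 1 and 11 positions on the 3 days, and 2.16 and 2.58 in Pcdhg.

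Members higher and lower from day 0 to 1 were 20 and 2 with windows of 500 bp on each side, 11 and 0 with at least 3 positions, and 12 higher with summit values of 10 or more. From day 0 to 2 they were 11 and 2 with the short windows, 1 and 0 with at least 3 positions, and 2 were lower with equal list lengths. From day 1 to 2, 5 were higher with the short windows, 1 with at least 3 positions, and 0 higher and 5 lower with summit values of 10 or more. With equal list lengths 4 were higher and 19 lower in that step. No background share is given for the short windows, the equal lists or the summit values of 10 or more.

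With only the first 1500 bp taken as the variable exon, the rest of each exon counts as sequence between, and the ratio on day 1 was 5.14 in Pcdha and 2.31 in Pcdhg, and 1.52 in Pcdhg on day 2. With summit values of 10 or more, the ratio on day 2 was 20.7 in Pcdha, from 4 positions against 1, above the 15.5 of day 1, and in Pcdhg it was 4.79 on day 0 and 3.52 on day 2. Equal list lengths, tried for these ratios after seeing the data, kept day 1 highest (13.7 in Pcdha against 2.74 and 3.88). Backgrounds over gene starts and over windows of like total or with at least 3 positions were also added after seeing the data.

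With equal list lengths the median summit value was 6.86 on day 0 and 6.26 on day 2, and median fuzziness 50.2 on day 2. With summit values of 10 or more, median fuzziness was 45.3 on day 0 and 49.1 on day 2. Shared positions were 4.46%, 8.21% and 7.43% within 10 bp and 19.1%, 26.3% and 22.1% within 40 bp for day 0 with 1, day 1 with 2 and day 0 with 2, and 10.0% and 9.09% for the last 2 with equal list lengths. Centres within 250 bp were 14.3%, 9.09% and 10.8% on the 3 days with summit values of 10 or more, which makes day 1 the lowest. The small number of positions per member limits all member values, and no value measures the spread between cultures.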
